A study of Mus musculus with 60 samples.

Results

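The 6 thalamic marker genes Tcf7l2, Lef1, Prkcd, Slc17a6, Synpo2 and Ntng1 were followed in the brain RNA of mice lacking paraoxonase 2 (PON2). They were chosen by name, because the thalamus borders the striatum and its RNA can be carried along when striatum or cortex is dissected. All 6 of the 6 symbols were found among the 20423 genes of the deposited counts. The groups were homozygous PON2-deficient mice and their wild-type littermates, males and females, with cortex, striatum and cerebellum taken from each sex and genotype. All mice were on a C57BL/6J background, came from crosses of heterozygotes, were 3 to 4 months old, and had been through behavioural tests before the tissue was frozen and ground to powder. Each of the 12 groups of region, sex and genotype held 5 libraries, 60 in all. The mice were used in rolling cohorts, and neither the cohort of a library nor the borders of the dissection are given. Equal replicate numbers in different regions are not stated to come from 1 mouse. A p-value here rests on the spread between samples, which may be technical in part.

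The thalamus relays sensory and motor signals to the cortex, and most of its relay neurons are glutamatergic. Where most excitatory neurons of the adult neocortex use the vesicular transporter VGLUT1, thalamic relay neurons load glutamate with VGLUT2, and they keep making transcription factors of the Wnt pathway into adult life. Tcf7l2 and Lef1 encode transcription factors that bind beta-catenin at the end of the canonical Wnt pathway, and Tcf7l2 sets the identity of postmitotic thalamic and habenular neurons. Prkcd encodes the diacylglycerol-activated kinase PKC delta, and Slc17a6 encodes VGLUT2. Ntng1 encodes netrin-G1, a lipid-anchored adhesion protein of thalamocortical axons that binds the netrin-G ligand Lrrc4c, and Synpo2 encodes an actin-binding protein of the synaptopodin family. They are not confined to the thalamus in the mouse brain, and Prkcd is also made in Purkinje cells and in the central amygdala, for example.

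In GRCm38 (GENCODE M21) Tcf7l2 lies at chr19:55741820-55933654, plus strand. Lef1 lies at chr3:131110471-131224356, plus strand, Synpo2 at chr3:123076519-123236149, minus strand and Ntng1 at chr3:109780040-110144011, minus strand. Prkcd lies at chr14:30595354-30626210, minus strand and Slc17a6 at chr7:51622006-51671119, plus strand. The 6 genes thus sit on 4 chromosomes, and the 3 on chromosome 3 are separate loci. Because 2 of the genes encode factors of the TCF/LEF family, the 250 bases before each annotated start in RefSeq (GRCm38.p6) were searched on both strands for words of 7 letters that begin with CTTTG and end in AT, TT, AA or TA, the core letters of sites these factors bind. The 6 genes had 12 start sites in the table, and 3 of the 12 windows held a word. Over all windows of the same length, 14.8% of 32817 did. The windows that held a word belonged to Tcf7l2 (start site 2, chr19:55895071-55895320, plus strand), Lef1 (start site 4, chr3:131156044-131156293, plus strand) and Prkcd (start site 2, chr14:30610311-30610560, minus strand), and they are shown on the strand of the gene with the word, or its reverse complement, in capitals:
Tcf7l2: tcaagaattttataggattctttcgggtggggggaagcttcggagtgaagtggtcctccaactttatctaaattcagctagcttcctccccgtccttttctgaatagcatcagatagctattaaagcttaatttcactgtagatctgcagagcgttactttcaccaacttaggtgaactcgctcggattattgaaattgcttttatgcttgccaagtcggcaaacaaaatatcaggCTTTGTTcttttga
Lef1: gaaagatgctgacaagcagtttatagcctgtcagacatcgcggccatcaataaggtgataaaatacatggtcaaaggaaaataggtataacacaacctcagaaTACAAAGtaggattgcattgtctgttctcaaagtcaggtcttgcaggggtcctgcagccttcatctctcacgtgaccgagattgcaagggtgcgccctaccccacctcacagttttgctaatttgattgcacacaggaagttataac
Prkcd: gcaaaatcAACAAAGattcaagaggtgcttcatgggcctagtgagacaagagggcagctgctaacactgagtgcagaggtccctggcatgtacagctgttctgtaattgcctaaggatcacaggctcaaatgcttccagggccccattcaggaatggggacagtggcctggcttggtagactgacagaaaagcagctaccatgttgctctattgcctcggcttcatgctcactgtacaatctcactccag
Each of the 3 windows lies before an internal start and not before the first start of its gene. A word is a match of letters and not a bound site.

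Levels are given as CPM, read counts relative to the TMM-scaled size of the library, in libraries of 26091911 to 28125224 counts. The labels were checked first. Pon2 measured 2.34 to 5.63 CPM in PON2-deficient and 50.2 to 58.9 CPM in wild-type cortex, 2.56 to 6.90 and 44.7 to 56.9 CPM in striatum, and 0.454 to 1.25 and 39.2 to 51.3 CPM in cerebellum. All 9 cortical, 10 striatal and 9 cerebellar markers were higher in every library of their own region than in any library of the other regions. The highest correlation between any 2 libraries was 0.991, and no library repeated another. Male PON2-deficient striatum library 5 stood apart in data quality, with a mean precision weight of 0.0527 of the median of its region, against 0.381 for the next lowest. None of the 6 genes was highest or lowest there.

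In the striatum the 6 genes varied more between libraries than most genes did, and they varied together. In bulk tissue, fewer cells of a type and less RNA per cell cannot be told apart. Slc17a6 measured 21.3, 36.996, 18.96, 11.9 and 6.82 CPM in the PON2-deficient females, against 17.7, 42.1, 57.3, 12.7 and 45.5 CPM in the wild-type females. Slc17a6 measured 16.6, 40.4, 9.61, 5.71 and 11.95 CPM in the PON2-deficient males, against 10.7, 11.7, 46.4, 5.63 and 11.98 CPM in the wild-type males. High values thus occurred in both genotypes and sexes, and the groups overlapped. Tcf7l2 measured 16.4, 22.4, 14.3, 7.10 and 4.86 CPM in the PON2-deficient females, against 11.9, 28.8, 42.3, 12.8 and 31.6 CPM in the wild-type females. Tcf7l2 measured 11.7, 14.02, 7.20, 8.87 and 7.66 CPM in the PON2-deficient males, against 9.89, 7.95, 28.5, 8.17 and 9.70 CPM in the wild-type males. Wild-type female libraries 2, 3 and 5 and wild-type male library 3 were the 4 highest, followed by PON2-deficient female library 2. The cortical SDs of the log2 level ran from 0.212 to 0.490, beside a median over genes of 0.145. The striatal SD over the 20 libraries was 1.05 for Slc17a6, 0.842 for Tcf7l2, 0.769 for Prkcd, 0.625 for Ntng1, 0.557 for Synpo2 and 0.390 for Lef1. The median SD of the 15833 striatal genes averaging 1 CPM or more was 0.217, and 1.01% of them had a larger SD than Slc17a6.

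Prkcd and Lef1 each had 1 library well above the rest. Prkcd measured 15.3, 19.3, 18.99, 20.9 and 10.9 CPM in the PON2-deficient females, against 16.9, 29.3, 125, 23.4 and 28.98 CPM in the wild-type females. Prkcd measured 26.9, 20.6, 18.7, 19.7 and 21.6 CPM in the PON2-deficient males, against 15.7, 9.85, 32.2, 12.2 and 13.1 CPM in the wild-type males. Wild-type female library 3 had 125 CPM and the next highest of the 20 libraries 32.2 CPM. Lef1 measured 4.54, 5.10, 5.88, 4.57 and 4.20 CPM in the PON2-deficient females, against 6.32, 7.77, 14.7, 6.35 and 7.67 CPM in the wild-type females. Lef1 measured 5.95, 5.79, 5.32, 5.28 and 5.17 CPM in the PON2-deficient males, against 5.002, 4.65, 4.88, 5.37 and 5.93 CPM in the wild-type males. For Lef1 the 5 wild-type female libraries lay above all 5 PON2-deficient female libraries, while the values of the male groups overlapped. How many of all genes separate the female groups in this way was not counted, so the separation is given as a description only. Ntng1 measured 21.9, 30.5, 19.8, 15.6 and 10.4 CPM in the PON2-deficient females, against 18.6, 29.2, 58.9, 17.6 and 33.7 CPM in the wild-type females. Ntng1 in males ran from 12.1 to 27.5 CPM in the PON2-deficient mice and from 11.1 to 33.7 CPM in the wild-type mice. The genotypes overlapped within each sex for Ntng1. Synpo2 measured 15.8, 41.8, 42.9, 25.3 and 24.997 CPM in the PON2-deficient females, against 36.8, 31.9, 64.7, 37.02 and 43.4 CPM in the wild-type females. Synpo2 measured 29.7, 16.9, 15.7, 18.3 and 20.5 CPM in the PON2-deficient males, against 19.7, 23.5, 27.03, 23.3 and 21.96 CPM in the wild-type males. For Synpo2 the genotypes overlapped within each sex, and the males stood low: the highest of the 10 male libraries had 29.7 CPM, which 7 of the 10 female libraries exceeded.

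**Figure D1:**
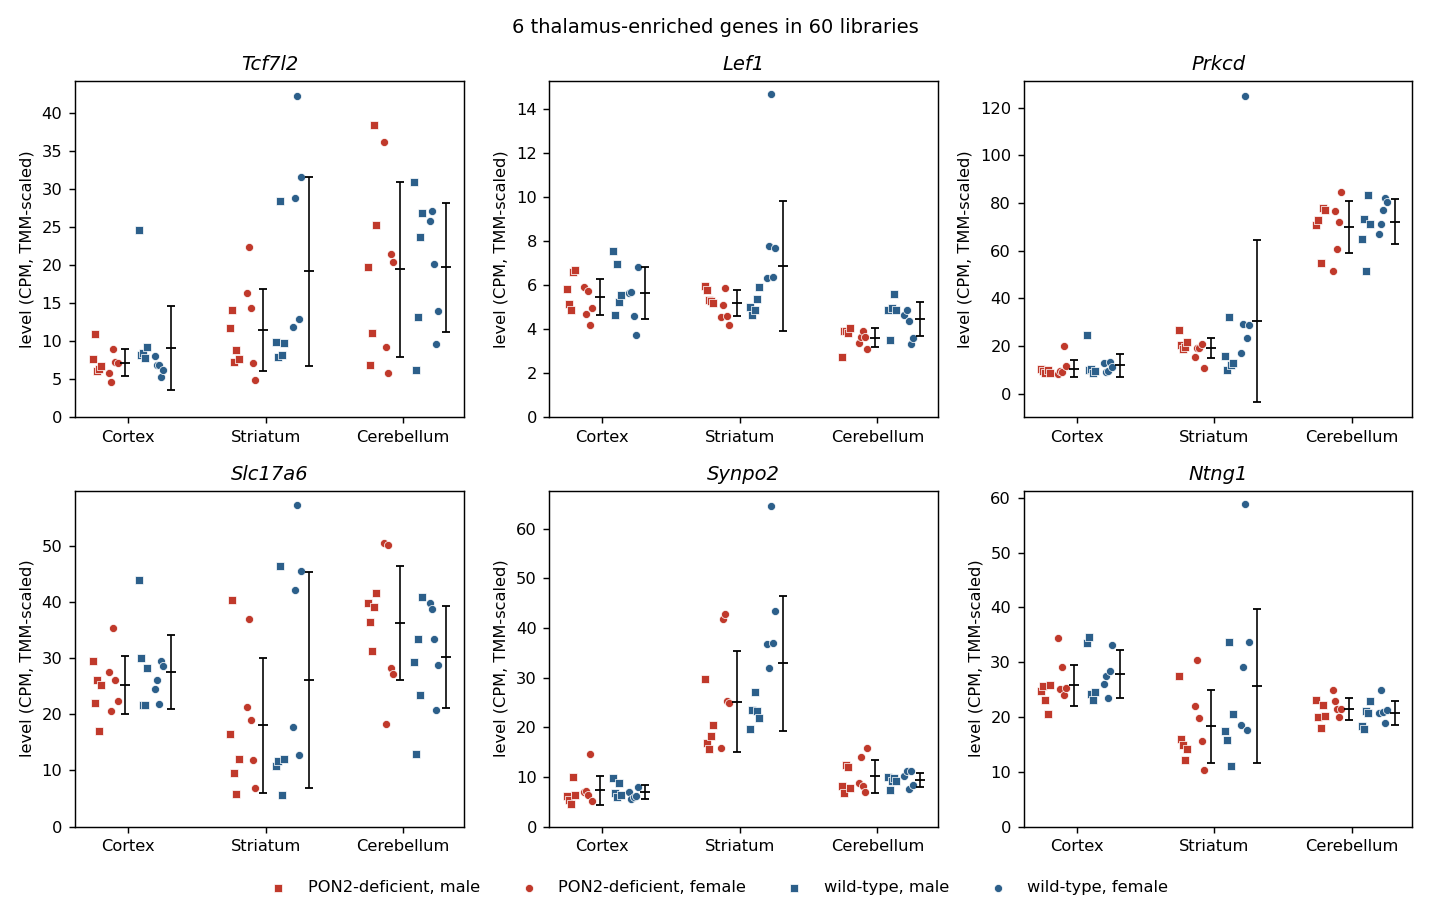
Level of each gene in CPM (TMM-scaled, linear axis) in every library by region, with PON2-deficient left of wild-type, squares for males and circles for females, and black bars for the mean ± SD of 10 libraries. In the striatum 1 wild-type female library is the highest for each of the 6 genes, at 125 CPM for Prkcd, and in the cortex 1 wild-type male library is the highest for Tcf7l2, Prkcd, Slc17a6 and Lef1.

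The library that stood highest was the same for all 6 genes. Wild-type female striatum library 3 had 125 CPM of Prkcd, 64.7 of Synpo2, 58.9 of Ntng1, 57.3 of Slc17a6, 42.3 of Tcf7l2 and 14.7 of Lef1. It was the highest striatal library for 5.30% of the 15833 genes that averaged 1 CPM or more. Wild-type female library 5 had all 6 genes among the 5 highest libraries, and wild-type female library 2 had 5 of the 6. Wild-type male library 3 came next below wild-type female library 3 for Prkcd, Slc17a6 and Ntng1. It came in place 16 of 20 for Lef1, so that the genes did not all share 1 order. PON2-deficient female library 5 was the lowest for Tcf7l2, Lef1 and Ntng1, at 4.86, 4.20 and 10.4 CPM. That library also had the highest summed choroid plexus markers of the region, 3061 CPM over 12 genes, against 1137 CPM in wild-type female library 3 and a lowest striatal value of 217 CPM. Choroid plexus, the tissue of the ventricles, is another neighbour of the striatum, and its part in the low values was not tested.

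A list of 17 other thalamic markers followed the 6 genes in the striatum. All 17 averaged 1 CPM or more there in each genotype, among them the transcription factors Gbx2, Shox2 and Lhx9 of thalamic development, and none was at 0 in all libraries. Their summed level ran from 294 to 499 CPM (median 377) in PON2-deficient and from 307 to 691 CPM (median 382) in wild-type libraries. The sum of the 6 genes ran from 62.2 to 156 CPM (median 90.3) in PON2-deficient and from 65.7 to 363 CPM (median 109) in wild-type libraries. Both sums were highest in wild-type female library 3 and, in the PON2-deficient group, in female library 2. Rgs16, a regulator of G protein signalling, ran from 4.69 to 31.6 CPM around a median of 8.23 CPM. Plekhg1 ran from 11.4 to 75.9 CPM around 22.3 CPM. Wild-type female library 3 was the highest for 8 of the 17, including Rora, Tnnt1, Plekhg1, Ramp3, Rgs16 and Patj, and wild-type male library 3 was the highest for 5, namely Calb2, Gbx2, Lhx9, Zic1 and Zic4. The 2 libraries thus led in different genes of the list. Shox2 was highest in wild-type female library 5 at 25.6 CPM, beside a striatal median of 2.996 CPM.

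The relation was measured on log2 CPM after the mean of each group of sex and genotype was subtracted, and is given as a description, because the genes were chosen with these data known and the points share library depth. Over the 20 striatal libraries the mean of the 6 genes and the mean of the 17 markers gave Pearson's r = 0.95 and Spearman's rho = 0.94, and r = 0.93 without the 2 libraries farthest from the median. In cortex r was 0.78 and rho 0.65, and r was 0.62 without the 2 farthest. In cerebellum, where 16 of the 17 could be used, r was 0.54 and rho 0.62, and r was 0.53 without the 2 farthest. There other lists gave higher values, 0.68 with striatal projection neuron markers, 0.57 with smooth muscle and pericyte markers and 0.57 with habenula markers. The 17 markers also summed to 2155 to 2326 CPM in PON2-deficient and 2113 to 2350.3 CPM in wild-type cerebellum, above every striatal and cortical sum, so that the list is not specific to the thalamus. In the striatum the same mean gave r = 0.56 with 8 of 11 hypothalamus markers, 0.32 with 7 habenula markers, 0.26 with 9 markers of cortical excitatory neurons, -0.01 with 7 markers of globus pallidus and septum, and -0.07 with 12 choroid plexus markers. With 10 markers of striatal projection neurons, such as Drd1, r was -0.59. Without the 2 farthest libraries that value was -0.47. Negative values of like size were found with lists that are no striatal markers, at -0.54 with the 2 other vesicular glutamate transporters, -0.51 with 8 other protein kinase C genes, -0.48 with 6 endothelial markers and -0.45 with 3 netrin-G partners, so the negative value was not particular to the striatal list. The sum of the striatal markers ran from 3809 to 7287 CPM in PON2-deficient and from 4021 to 7562 CPM in wild-type libraries. The hypothalamus markers, of which Agrp, Hmx2 and Hmx3 had no counts to use, summed to 6.20 to 51.6 CPM in PON2-deficient and 8.81 to 95.2 CPM in wild-type striatum. Their part, and that of the other neighbouring tissues, in the values of the 6 genes was not tested.

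**Figure D2:**
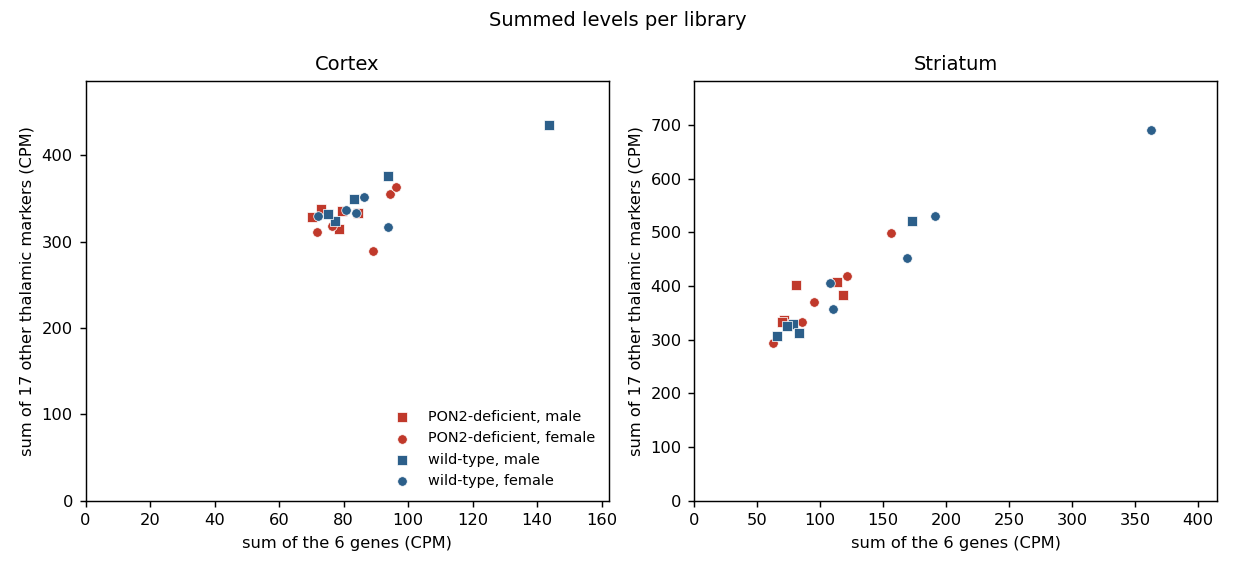
Summed level of the 6 genes (x axis, CPM) against the summed level of the 17 other thalamic markers (y axis, CPM) in each library of cortex and striatum, with red for PON2-deficient and blue for wild-type, squares for males and circles for females. In the striatum the 2 sums climb together up to 363 and 691 CPM in 1 wild-type female library, and in the cortex 1 wild-type male library lies apart at 144 and 434 CPM.

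The 6 genes were also compared pair by pair over the 20 libraries of each region, again with the group means subtracted, which makes 45 relations whose permutation p-values were adjusted together. These p-values are not independent evidence, since the genes were chosen with results of these data known. In the striatum all 15 pairs had a positive r (median 0.60), and 8 passed an adjusted p of 0.05. For Tcf7l2 and Slc17a6, Pearson's r was 0.89 (permutation p = 4.00e-05, adjusted p = 9.00e-04), Spearman's rho was 0.90 (permutation p = 6.00e-05, adjusted p = 0.00135), and r without the 2 libraries farthest from the median was 0.84. For Tcf7l2 and Ntng1, Pearson's r was 0.88 (permutation p = 3.00e-05, adjusted p = 9.00e-04), Spearman's rho was 0.87 (permutation p = 9.00e-05, adjusted p = 0.00135), and r without the 2 libraries farthest from the median was 0.84. For Slc17a6 and Ntng1, Pearson's r was 0.83 (permutation p = 9.00e-05, adjusted p = 0.00135), Spearman's rho was 0.88 (permutation p = 5.00e-05, adjusted p = 0.00135), and r without the 2 libraries farthest from the median was 0.91. The 2 farthest libraries were found from the first-named gene of each of these 3 pairs, after group means were subtracted. Wild-type female library 3 was not among them, and without that library r was 0.89, 0.87 and 0.84 for the 3 pairs in the same order. Tcf7l2, Slc17a6 and Ntng1 thus formed the tightest trio, and Synpo2 was the loosest member, with r between 0.32 and 0.58 to the other 5. Prkcd and Lef1 had r = 0.78 without passing (permutation test, adjusted p = 0.0746), and the size of this value rested in part on 1 library. It was 0.49 without the 2 farthest libraries and 0.34 without wild-type female library 3. For this pair Spearman's rho was 0.60 (permutation p = 0.0146, adjusted p = 0.0769), and r within the 10 PON2-deficient libraries was 0.64. Without wild-type female library 3, all 15 pairs were still positive (median r 0.48) and 5 passed. The median r was 0.62 within the 10 PON2-deficient libraries and 0.75 within the 10 wild-type libraries. In cortex the median r was -0.04 within PON2-deficient and 0.53 within wild-type libraries, and in cerebellum it was 0.02 within PON2-deficient and 0.39 within wild-type libraries. These differences were not tested. The wild-type cortical libraries include male library 1, without which the cortical median r over both genotypes was 0.02. In cortex 13 of the 15 pairs were positive (median 0.29), and 1 passed: for Slc17a6 and Ntng1, Pearson's r was 0.70 (permutation p = 0.00321, adjusted p = 0.0206), Spearman's rho was 0.73 (permutation p = 0.00185, adjusted p = 0.0166), and r without the 2 libraries farthest from the median was 0.61. Without wild-type male cortex library 1, 9 of 15 were positive and the median r was 0.02. In cerebellum 11 of 15 were positive (median 0.14) and 0 passed, while 3 had an unadjusted p under 0.05. There Prkcd and Slc17a6 had the lowest value, where Pearson's r was -0.51 (permutation p = 0.0693, adjusted p = 0.148), Spearman's rho was -0.62 (permutation p = 0.0154, adjusted p = 0.0769), and r without the 2 libraries farthest from the median was -0.37.

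**Figure D3:**
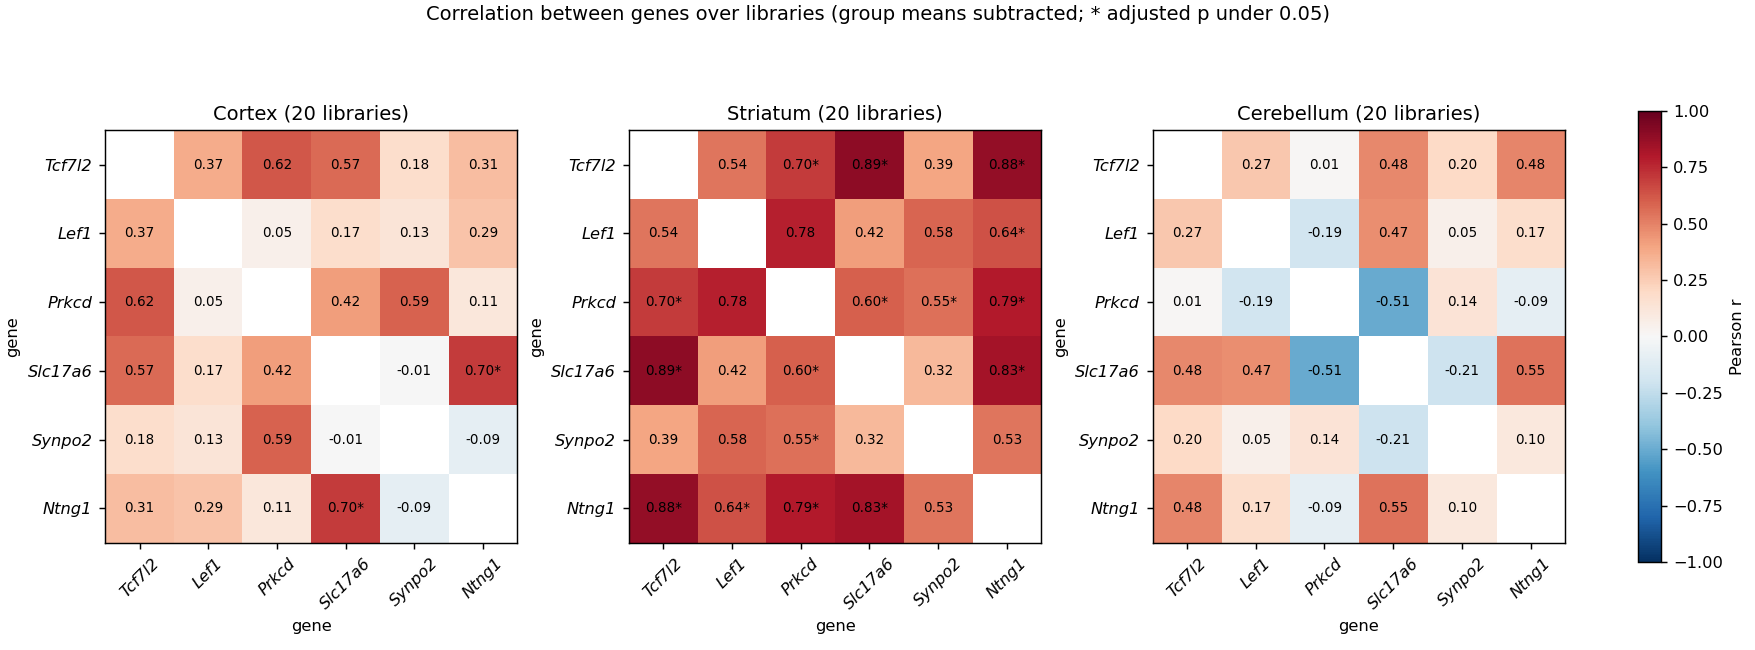
Pearson's r between each pair of the 6 genes over 20 libraries in cortex, striatum and cerebellum, on log2 CPM with group means subtracted, where the colour runs from blue (negative) to red (positive) and a star marks an adjusted p under 0.05. Every square of the striatum is positive, from 0.32 to 0.89, while the cerebellum holds values down to -0.51.

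Genes were then ranked by the r of their log2 level, group means subtracted, with the mean of the 6 genes over the 20 libraries of a region. In the striatum the 10 most alike of 13688 genes were Rgs16 (r = 0.93), Fhdc1 (0.91), Plcb4 (0.89), Zmat4 (0.88), Patj (0.86), Plekhg1 (0.84), Tert (0.84), Tanc1 (0.83), Nell1 (0.83) and Ramp3 (0.83). Of these 10, Rgs16, Patj, Plekhg1 and Ramp3 belong to the list of 17 thalamic markers, which makes up 17 of the 13688 genes. The list and the 6 genes were chosen with results of these data known, so the overlap is a description and not independent evidence. Plcb4 encodes a phospholipase C and Ramp3 a receptor activity-modifying protein. In the cortex the 10 most alike of 13725 genes began with Twf1 (0.84), Rasd1 (0.80) and Ankrd26 (0.80), and 0 of the 10 were on the thalamic list. In the cerebellum the 10 most alike of 13429 genes began with Gpr26 (0.86), Ngef (0.86) and Pak6 (0.84), and 2 of the 10, Shox2 (0.83) and Lhx9 (0.81), were on the list.

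Whether loss of PON2 went with a change of these genes was asked in each region. In the striatum all 6 were lower in PON2-deficient mice, and 0 of 6 passed the test (edgeR quasi-likelihood, p-values adjusted over all 18962 genes tested, threshold 0.05), where 0.0105% of all genes passed. An unadjusted p under 0.05 was reached by 2 of the 6 genes and by 937 of all 18962, and DESeq2 and limma also called 0 of the 6. Tcf7l2 averaged 11.5 ± 5.38 CPM in PON2-deficient and 19.2 ± 12.4 CPM in wild-type mice (SD, n = 10 each), a log2 change of -0.67 (SE 0.303, adjusted p = 0.985). Lef1 averaged 5.18 ± 0.600 and 6.86 ± 2.95 CPM in the same groups, a log2 change of -0.36 (SE 0.128, adjusted p = 0.835). For both genes the ranges of the groups overlapped. The log2 change was -0.51 (SE 0.299, adjusted p = 0.995) for Prkcd, -0.45 (SE 0.408, adjusted p = 0.995) for Slc17a6, -0.45 (SE 0.242, adjusted p = 0.995) for Ntng1 and -0.35 (SE 0.168, adjusted p = 0.995) for Synpo2. The median of the 6 was -0.45, beside 0.00984 over all genes tested. The 17 other thalamic markers showed 13 lower and 4 higher, with a median of -0.18 and 0 called, and 2 had an unadjusted p under 0.05. These were Vav3 at -0.40 (SE 0.109, adjusted p = 0.705) and Tnnt1 at -0.72 (SE 0.282, adjusted p = 0.907). By genotype, 8 of 8 markers of the ependyma, which lines the ventricles, were higher (median 0.47, 0 called, 4 with an unadjusted p under 0.05). They summed to 21.3 to 68.2 CPM in PON2-deficient and 25.6 to 45.9 CPM in wild-type striatum. The 68.2 CPM came from PON2-deficient male library 5, which had the low precision weight, and the next PON2-deficient value was 44.9 CPM. In cortex and cerebellum the median sum was lower in PON2-deficient mice, 13.7 against 19.8 CPM and 23.3 against 30.1 CPM. The part of the ependyma was not tested.

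The size of the striatal difference rested in part on single wild-type libraries. Without wild-type female library 3 the log2 change was -0.08 for Prkcd, -0.22 for Lef1, -0.28 for Ntng1, -0.33 for Slc17a6, -0.25 for Synpo2 and -0.54 for Tcf7l2. Without wild-type male library 3 it was -0.06 for Slc17a6 and -0.41 for Tcf7l2. Other fits that left out 1 library took the change further from 0, to -0.81 for Tcf7l2, -0.77 for Slc17a6 and -0.61 for Prkcd. The lowest values of the other genes were -0.58 for Ntng1, -0.44 for Synpo2 and -0.41 for Lef1. All 6 stayed below 0 in each of the 20 fits that left out 1 library. These fits share most of their libraries, and the 6 genes varied together between them. The sign shared by the 6, here and with all libraries, is thus not 6 independent results.

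The 2 sexes were then taken apart. In female striatum the log2 change was -1.38 (SE 0.426, adjusted p = 0.884) for Prkcd, -0.81 (SE 0.181, adjusted p = 0.849) for Lef1, -0.97 (SE 0.426, adjusted p = 0.9999) for Tcf7l2, -0.87 (SE 0.577, adjusted p = 0.9999) for Slc17a6, -0.68 (SE 0.342, adjusted p = 0.9999) for Ntng1 and -0.50 (SE 0.236, adjusted p = 0.9999) for Synpo2, and 0 of 6 passed, where 0.00527% of all genes did. An unadjusted p under 0.05 was reached by 4 of the 6 genes and by 774 of all 18962, and the smallest of the 6 was that of Lef1 at 2.24e-04. Without wild-type female library 3 the female change was -0.53 for Prkcd (SE 0.271), -0.53 for Lef1 (SE 0.117), -0.71 for Tcf7l2 (SE 0.436), -0.62 for Slc17a6 (SE 0.607), -0.33 for Ntng1 (SE 0.320) and -0.30 for Synpo2 (SE 0.229). An unadjusted p under 0.05 was then left for 1 of the 6, Lef1, at 2.26e-04 (adjusted p = 0.865). In male striatum the changes ran from -0.38 to 0.37, 0 of 6 passed, where 0.00527% of all genes did, and 0 had an unadjusted p under 0.05. The difference between the sexes was itself tested, as the male minus the female change. It was 1.75 (SE 0.600, adjusted p = 0.880) for Prkcd and 0.90 (SE 0.257, adjusted p = 0.880) for Lef1, and 0 of 6 genes passed, as did 0% of all genes. In the same edgeR test 2 of the 6 reached an unadjusted p under 0.05, Lef1 (0.00220) and Prkcd (0.00836). So did 818 of all 18962 genes. Without wild-type female library 3 the male minus the female change was 0.90 for Prkcd and 0.62 for Lef1. Among the other 4 it lay between 0.11 for Ntng1 and 0.58 for Slc17a6, beside 0.46 and 0.82 for these genes with all libraries. Without that library the unadjusted p (edgeR) was 0.00113 for Lef1 and 0.0268 for Prkcd, with an adjusted p of 0.922 for each. After adjustment the effect was thus not shown to differ between the sexes.

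Over both genotypes the male striatum was lower than the female for all 6 genes, and 0 of 6 passed, where 0.105% of all genes did. Synpo2 averaged 21.7 ± 4.39 CPM in males and 36.5 ± 13.4 CPM in females (SD, n = 10 each), a log2 change of -0.73 (SE 0.168, adjusted p = 0.201). The other 5 lay between -0.69 for Tcf7l2 and -0.27 for Lef1. An unadjusted p under 0.05 was reached by 3 of the 6 genes and by 1482 of all 18962.

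In the cortex the genes were steadier, apart from wild-type male library 1. Tcf7l2 measured 7.61, 10.9, 5.996, 6.34 and 6.77 CPM in the PON2-deficient males, against 24.6, 8.11, 8.37, 7.83 and 9.19 CPM in the wild-type males. In the females it measured 5.80, 4.62, 8.997, 7.21 and 7.13 CPM in the PON2-deficient and 7.98, 6.90, 6.81, 5.22 and 6.20 CPM in the wild-type mice. The first wild-type male library thus stood at more than any other cortical library, and the other groups overlapped. Prkcd measured 10.6, 9.46, 8.69, 9.77 and 8.72 CPM in the PON2-deficient males, against 24.5, 9.82, 10.2, 8.50 and 9.43 CPM in the wild-type males. Slc17a6 measured 29.5, 21.9, 26.03, 16.9 and 25.1 CPM in the PON2-deficient males, against 43.8, 30.02, 21.6, 21.6 and 28.2 CPM in the wild-type males. The same library was the highest of all 20 for Tcf7l2, Lef1, Prkcd and Slc17a6 and the third highest for Synpo2 and Ntng1, while it was the highest for 4.36% of 15885 genes. Of the 17 other thalamic markers it was the highest for 7, and the other 10 peaked in other libraries. Among the 14 of the 17 that averaged 1 CPM or more it was the highest for 4. The 7 were Zic1, Zic4, Ramp3, Gbx2 (4.84 CPM, cortical median 0.468), Shox2 (3.87, median 0.112), Lhx9 (3.66, median 0.716) and Slitrk6 (3.78, median 0.634). PON2-deficient female library 4 was high in Prkcd (19.98 CPM) and Synpo2 (14.6 CPM) but not in Tcf7l2 (7.21 CPM) or Lef1 (4.18 CPM). The summed level of the 17 other thalamic markers was 289 to 363 CPM in PON2-deficient and 317 to 434 CPM in wild-type cortex, with 13 and 15 of the 17 averaging 1 CPM or more. The part of neighbouring tissue in the values of the 6 genes was not tested.

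Of the 6 genes, 5 were lower and 1 was higher in PON2-deficient cortex, and 0 passed, where 0.0316% of 18972 genes did. The log2 change was -0.30 (SE 0.193, adjusted p = 0.589) for Tcf7l2, -0.17 (SE 0.183, adjusted p = 0.784) for Prkcd, -0.13 (SE 0.127, adjusted p = 0.749) for Slc17a6, -0.12 (SE 0.0876, adjusted p = 0.661) for Ntng1, -0.05 (SE 0.112, adjusted p = 0.914) for Lef1 and 0.05 (SE 0.170, adjusted p = 0.949) for Synpo2. The median of the 6 was -0.12, beside -5.63e-04 over all genes, and DESeq2 and limma also called 0 of the 6. An unadjusted p under 0.05 was reached by 0 of the 6 and by 2159 of all 18972 genes. Without wild-type male library 1 the change was -0.07 for Tcf7l2, 0.03 for Prkcd and -0.03 for Slc17a6. In cortical males alone the changes ran from -0.63 to -0.04 and 0 passed, where 0.148% of all genes did. There 1 of the 6 had an unadjusted p under 0.05, as had 2657 of all 18972 genes. In cortical females they ran from -0.05 to 0.30 and 0 passed, where 0.00527% of all genes did, with 0 at an unadjusted p under 0.05. The difference of the genotype effect between the sexes passed for 0 of 6 genes, as for 0% of all genes, and 0 had an unadjusted p under 0.05. Males against females over both genotypes gave 0 of 6, where 0.0896% of all genes passed, with Tcf7l2 at 0.49 (SE 0.193, adjusted p = 0.389). In that comparison 1 of the 6 and 1999 of all 18972 genes had an unadjusted p under 0.05. Of the 17 other thalamic markers, 16 could be tested in cortex, with 5 higher and 11 lower in PON2-deficient mice, a median of -0.04 and 0 called. Of these 16, 3 had an unadjusted p under 0.05, beside the 2159 of all 18972 genes.

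**Figure D4:**
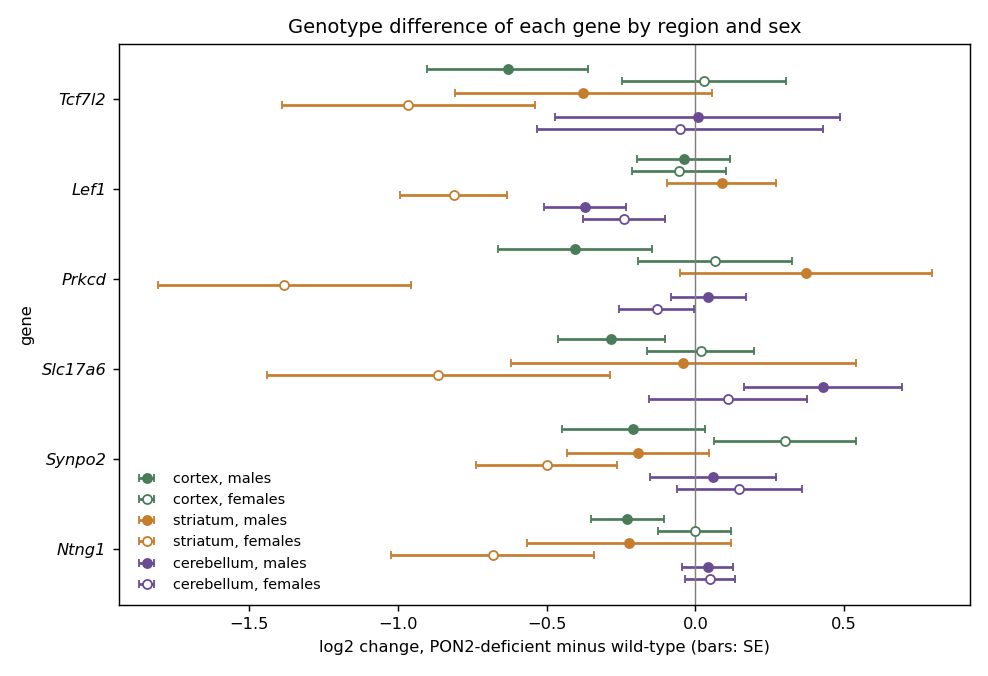
Log2 change between PON2-deficient and wild-type mice (x axis, points with SE bars) for each gene, in males (filled points) and females (open points) of each region. The 6 points of female striatum lie between -1.38 and -0.50, and none of the points passed the test.

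In the cerebellum, which does not border the thalamus, all 6 genes were measured in every library. Prkcd measured 51.6, 76.6, 60.5, 72.2 and 84.5 CPM in PON2-deficient females, against 67.1, 71.3, 76.9, 82.2 and 80.4 CPM in wild-type females, and the groups overlapped. Tcf7l2 spread more, with 19.7, 6.82, 11.04, 38.4 and 25.2 CPM in PON2-deficient males, against 30.98, 6.16, 13.1, 23.7 and 26.9 CPM in wild-type males, again with overlap. Its SD on the log2 scale was 0.847, close to the 0.842 of the striatum, and 1.14% of cerebellar genes had a larger one. Ntng1 was the steadiest, with an SD of 0.139 beside a median over genes of 0.147. By genotype 3 of the 6 were lower and 3 higher, 0 passed, where 0.0321% of 18710 genes did, and DESeq2 and limma called 0 of the 6. An unadjusted p under 0.05 was reached by 1 of the 6 and by 2081 of all 18710 genes. Lef1 averaged 3.60 ± 0.426 CPM in PON2-deficient and 4.46 ± 0.759 CPM in wild-type cerebellum (SD, n = 10 each), a log2 change of -0.30 (SE 0.0976, adjusted p = 0.218). The other 5 ran from -0.04 for Prkcd to 0.27 for Slc17a6. Within cerebellar females 0 of 6 passed, where 0.00534% of all genes did, and within males 0 of 6, where 0.016% did. In females and males 0 and 1 of the 6 had an unadjusted p under 0.05, as had 965 and 1988 of all 18710 genes. Males against females gave 0 of 6, where 0.118% of all genes passed, with 0 at an unadjusted p under 0.05, and the effect of genotype differed between the sexes for 0 of 6, as for 0% of all genes, with 0. The genotype effect did not pass a test of its difference for any of the 6 genes between striatum and cortex, cerebellum and cortex or cerebellum and striatum, where 0%, 0.0147% and 0.00981% of 20387 genes passed. Striatum minus cortex, the difference was between -0.40 and -0.32 for the 6. In the 3 tests 0, 0 and 1 of the 6 had an unadjusted p under 0.05, as had 1285, 846 and 1217 of all 20387 genes.

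Levels were compared between regions in 1 fit over all 60 libraries. Synpo2 had 15.7 to 64.7 CPM (median 25.1) in striatum, 4.50 to 14.6 CPM (median 6.33) in cortex and 6.70 to 15.9 CPM (median 9.17) in cerebellum. Its log2 change was 1.97 (SE 0.125, adjusted p = 3.31e-20) in striatum against cortex, 0.45 (SE 0.125, adjusted p = 0.00104) in cerebellum against cortex and -1.52 (SE 0.121, adjusted p = 7.94e-17) in cerebellum against striatum. Synpo2 was thus highest in striatum, where each of the 20 libraries lay above all 20 cortical ones. How many of all genes separate these 2 regions in this way was not counted. Prkcd had 9.85 to 125 CPM (median 19.5) in striatum, 8.39 to 24.5 CPM (median 9.63) in cortex and 51.6 to 84.5 CPM (median 72.5) in cerebellum. Its log2 change was 1.04 (SE 0.162, adjusted p = 1.93e-07) in striatum against cortex, 2.67 (SE 0.164, adjusted p = 2.10e-21) in cerebellum against cortex and 1.63 (SE 0.156, adjusted p = 5.96e-14) in cerebellum against striatum. The cerebellum led for Prkcd, and 1 striatal library exceeded every cerebellar library. Tcf7l2 had 4.86 to 42.3 CPM (median 11.8) in striatum, 4.62 to 24.6 CPM (median 7.17) in cortex and 5.80 to 38.4 CPM (median 20.3) in cerebellum. Its log2 change was 0.86 (SE 0.223, adjusted p = 8.51e-04) in striatum against cortex, 1.31 (SE 0.222, adjusted p = 5.58e-07) in cerebellum against cortex and 0.45 (SE 0.216, adjusted p = 0.0532) in cerebellum against striatum, so that cerebellum and striatum did not differ past the threshold. Slc17a6 had 5.63 to 57.3 CPM (median 14.6) in striatum, 16.9 to 43.8 CPM (median 26.1) in cortex and 12.98 to 50.5 CPM (median 33.4) in cerebellum. Its log2 change was -0.32 (SE 0.203, adjusted p = 0.175) in striatum against cortex, 0.33 (SE 0.201, adjusted p = 0.131) in cerebellum against cortex and 0.65 (SE 0.202, adjusted p = 0.00326) in cerebellum against striatum. The median of Slc17a6 was lowest in striatum and its range widest there.

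Lef1 had 4.20 to 14.7 CPM (median 5.35) in striatum, 3.74 to 7.56 CPM (median 5.59) in cortex and 2.71 to 5.61 CPM (median 3.90) in cerebellum. Its log2 change was 0.08 (SE 0.0819, adjusted p = 0.412) in striatum against cortex, -0.47 (SE 0.0829, adjusted p = 1.21e-06) in cerebellum against cortex and -0.55 (SE 0.0828, adjusted p = 3.62e-08) in cerebellum against striatum, so that the cerebellum was lowest and the other 2 regions did not differ past the threshold. Ntng1 had 10.4 to 58.9 CPM (median 18.1) in striatum, 20.6 to 34.6 CPM (median 25.5) in cortex and 17.7 to 25.005 CPM (median 21.03) in cerebellum. Its log2 change was -0.33 (SE 0.114, adjusted p = 0.0118) in striatum against cortex, -0.35 (SE 0.114, adjusted p = 0.00515) in cerebellum against cortex and -0.02 (SE 0.114, adjusted p = 0.892) in cerebellum against striatum, so that the cortex was highest. In all, striatum against cortex had 4 of 6 genes past the threshold, 3 higher and 1 lower, where 57% of 20387 genes passed, 28.8% higher and 28.2% lower. Cerebellum against cortex had 5 of 6, where 79.6% of all genes passed, and cerebellum against striatum had 4 of 6, where 79.8% passed. These shares lie near the background, and the 6 genes did not share a direction between any 2 regions. The 6 genes thus varied together between striatal libraries but had no common order of regions.

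**Figure D5:**
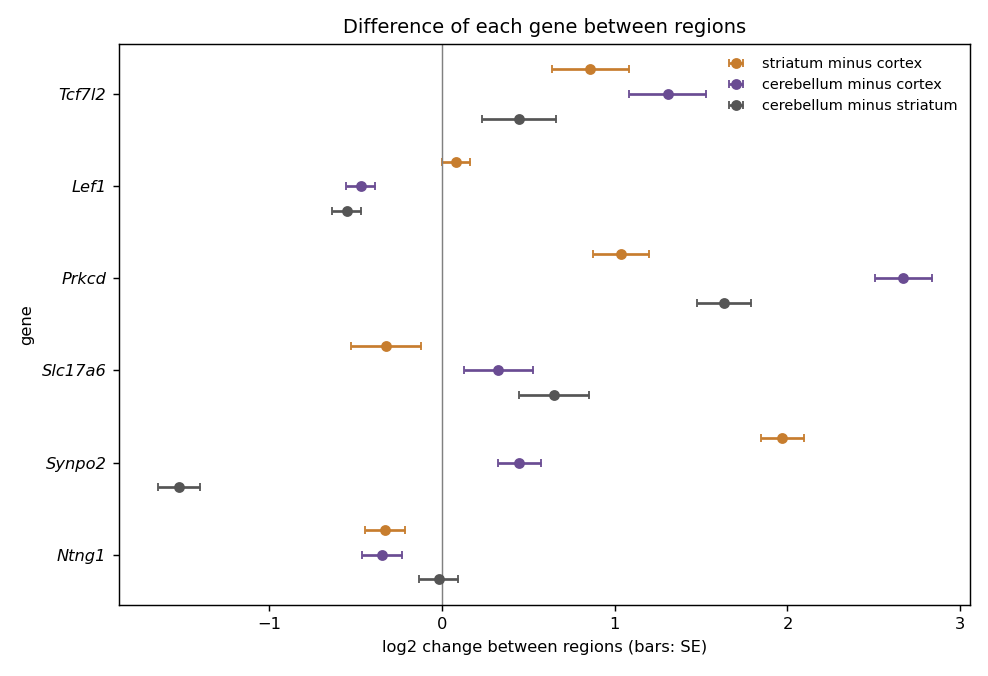
Log2 change of each gene between 2 regions (x axis, points with SE bars from the fit over 60 libraries), for striatum minus cortex, cerebellum minus cortex and cerebellum minus striatum. Synpo2 lies at 1.97 in striatum minus cortex and Prkcd at 2.67 in cerebellum minus cortex, while Lef1 and Ntng1 stay within 0.55 of 0.

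The relatives and partners of the 6 genes were read beside them by genotype in striatum, where 0 genes of any of these lists passed and 0 had an unadjusted p under 0.05 (edgeR). Of 13 other Wnt pathway genes 2 were higher and 11 lower in PON2-deficient mice, with a median log2 change of -0.06. Among them Notum, an enzyme that strips the lipid from Wnt proteins, was at -0.26 (SE 0.159, adjusted p = 0.995) and Nkd1, an inhibitor of the pathway, at -0.11 (SE 0.0691, adjusted p = 0.995). Of 8 other protein kinase C genes 4 were higher and 4 lower, with a median of -0.01. The other vesicular glutamate transporters, Slc17a7 (VGLUT1) and Slc17a8 (VGLUT3), were at -0.10 (SE 0.231, adjusted p = 0.995) and -0.01 (SE 0.0904, adjusted p = 0.996). Ntng2, the paralog of Ntng1, was at -0.25 (SE 0.165, adjusted p = 0.995), and Lrrc4c, the ligand of netrin-G1, at -0.00064 (SE 0.0745, adjusted p = 0.9999). Synpo2l, a relative of Synpo2, was at -0.48 (SE 0.261, adjusted p = 0.995). In cortex 0 genes of these lists passed either, and 3 had an unadjusted p under 0.05, namely Tcf7l1 at 0.22 (SE 0.104, adjusted p = 0.415), Apc at 0.13 (SE 0.0588, adjusted p = 0.414) and Ntng2 at 0.18 (SE 0.0690, adjusted p = 0.313). Over all 18972 genes tested in cortex, 2159 had an unadjusted p under 0.05.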

How the data were processed

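Total RNA of 30 to 50 mg of ground tissue was read as 150 nt pairs, per the labels' protocols. The authors deposited expected counts for 20423 genes, log2 CPM values and voom precision weights (a score per gene and library). The submitters' processing notes name Salmon, limma and edgeR, and no version, build or annotation is given in the sources used here. Deposited log2 values equalled voom's formula with an offset of 0.5 to within 5.33e-14. Of the gene IDs, 20403 matched a symbol.

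Expected counts were rounded and tested with edgeR 4.0.16 (R 4.3.3), using TMM scaling, filterByExpr and quasi-likelihood F tests (2-sided), with group means of sex and genotype in 1 fit per region and 1 fit of 60 libraries for regions. The Benjamini-Hochberg adjustment ran over all genes tested, with a threshold of 0.05. Log2 CPM for correlations and spreads used a prior count of 2, and correlations used 100000 permutations within groups of sex and genotype. The 6 genes, the lists and the rule for named genes (all 6 genes, up to 2 members of each list by smallest unadjusted p, up to 4 called ones and the 10 most alike genes) were chosen with earlier results of these data known. The alternatives were DESeq2 1.42.0, limma 3.58.1 on the deposited values, RLE scaling, no filter, a replicate block, and leaving out libraries. The procedure was tested on simulated data. In the simulated genotype comparison of striatum it called 8 of 50 genes changed 1.2-fold, 38 of 50 changed 1.5-fold and 47 of 50 changed 2-fold. The changed genes were drawn at random above 1 CPM, so these shares need not hold for the 6 genes, whose striatal spread lay above the median. Same-numbered PON2-deficient and wild-type libraries deviated together in male striatum, where all 5 pairs had r over 0.1 (0.11 to 0.50, median for other numbers 0.02), and in 0 to 3 of 5 pairs of the other 5 groups. Same-numbered libraries of 2 regions exceeded 0.1 in 8 (cortex and striatum), 13 (cortex and cerebellum) and 10 (striatum and cerebellum) of 20 pairs. No label states what a number shares, and the fits without the block were kept beside those with it.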

Additional observations from a re-analysis of the deposited data

Results flagged for a closer look

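Of 72 groups of 5 libraries tested, 7 held a library whose gap to its nearest neighbour was more than 0.71 of the range of the group. For independent groups chance gives about 1 in 20. The 72 are 12 groups of libraries read for each of 6 genes that in part varied together, so the count is a description only. Wild-type male cortex library 1 held 2 of the 7: Tcf7l2 at 24.6 CPM, against 7.83 to 9.19 CPM in the other 4 libraries of its group, and Prkcd at 24.5 CPM, against 8.50 to 10.2 CPM in the other 4 libraries of its group. Wild-type female striatum library 3 held 2 more: Prkcd at 125 CPM, against 16.9 to 29.3 CPM in the other 4 libraries of its group, and Lef1 at 14.7 CPM, against 6.32 to 7.77 CPM in the other 4 libraries of its group. In wild-type male striatum library 3, Tcf7l2 was 28.5 CPM, against 7.95 to 9.89 CPM in the other 4 libraries of its group. The remaining 2 were low values in the cerebellum of PON2-deficient males. Lef1 was 2.71 CPM, against 3.81 to 4.04 CPM in the other 4 libraries of its group, in library 1. Prkcd was 54.8 CPM, against 70.8 to 78.02 CPM in the other 4 libraries of its group, in library 3. No genotype effect of the 6 genes differed past the threshold between the sexes or between regions.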

How the results depend on the processing

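The count of the 6 genes past the threshold by genotype was 0 in each region under each alternative run. The regional counts stayed within 1.5 times under each alternative and each leave-out, at 3 to 5 for striatum against cortex, 5 for cerebellum against cortex and 3 to 5 for cerebellum against striatum. Slc17a6 in striatum against cortex passed with limma (-0.56) and with the replicate block (-0.50), and without replicates 2 or 3. Without replicates 4 or 5, Ntng1 in striatum against cortex no longer passed. Tcf7l2 in cerebellum against striatum passed without wild-type female striatum library 3 (adjusted p = 0.0285), and also without wild-type male cortex library 1 or without replicates 2 or 3. Without replicate 1, Slc17a6 in cerebellum against striatum no longer passed.

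The directions that reversed were of changes that did not pass with all libraries. Ntng1 in cerebellum against striatum was 0.0414 with limma and 0.0420 with the replicate block, and Synpo2 by genotype in cortex was -0.00439 with the replicate block. With libraries left out, the ranges were -0.13 to 0.14 for Ntng1 in cerebellum against striatum, -0.00412 to 0.15 for Lef1 in striatum against cortex, -0.22 to 0.0924 for Tcf7l2 by genotype in cerebellum, and -0.10 to 0.00483, -0.31 to 0.0289 and -0.12 to 0.10 for Lef1, Prkcd and Synpo2 by genotype in cortex. The cause was not tested.

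The count of correlated pairs moved more. Without subtracting group means it was 15 in striatum, 3 in cortex and 1 in cerebellum, and by Spearman's rho it was 5 in striatum. With libraries left out it ran from 4 to 9 in striatum, 0 to 1 in cortex and 0 to 1 in cerebellum, and it was 5 in striatum without wild-type female library 3.

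In male striatum, where same-numbered libraries deviated together, the block called 0 of the 6 genes as well. There Slc17a6 turned to 0.0671 with it, against -0.0406 without it, and 1 of all genes passed either way. The block changed the call of Slc17a6 in striatum against cortex, as given above, and no other call of the 6 genes. Over all genes it called 30 by genotype in cortex, against 6 without it, and 1 in striatum, against 2. For cortex, striatum and cerebellum DESeq2 called 242, 7 and 250 genes, where edgeR called 6, 2 and 6, and limma called 16 in cerebellum. Some fits were chosen after seeing the data. These leave out wild-type female striatum library 3 or wild-type male cortex library 1 from the regional and pair comparisons, and the first of these also from the female comparison. The regional fit without PON2-deficient male striatum library 5 and the block in male striatum were chosen in the same way.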
